A study of Mus musculus with 12 samples.

Results

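The genes described here are 10 members of the NF-kB system: the 5 subunit genes Rela, Nfkb1, Rel, Relb and Nfkb2, and 5 inhibitor genes, Nfkbia, Nfkbib, Nfkbie, Nfkbiz and Tnfaip3. They were chosen by name, 1 entry per gene, from a table of 40481 genes, by a rule that uses no measured value. RNA was sequenced from mouse hematopoietic stem cells (HSCs) in 12 libraries, 3 in each of 4 groups. The groups crossed genotype, wild type (WT) or an inducible ETV6-RUNX1 fusion (iE/R), with the source of the sorted cells, fetal liver of E14.5 embryos or bone marrow at 8 weeks of age. All 4 groups had been kept for 3 days in HSC expansion medium with 1 µg/mL doxycycline (DOX), so the WT cells had received the inducing drug too. ETV6-RUNX1 joins a pair of transcription factor genes and is known from childhood B-cell leukemia, and the series title asks whether its effects depend on developmental age. The sources used here do not give the promoter that drives the fusion, which sex was used or how many animals went into a library. Nor do the labels say that replicates came from separate animals, so every p-value measures the spread between these libraries, which may be technical.

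NF-kB is a family of dimeric transcription factors held in the cytoplasm by IkB proteins until a receptor signal leads an IkB kinase to mark the IkB for destruction. In the canonical branch the released dimers contain RelA or c-Rel with p50, the product of Nfkb1; in the alternative branch p100, the product of Nfkb2, is cut to p52, which pairs with RelB. Several genes of the system are themselves known NF-kB targets, among them those of IkB-alpha and A20, which close a negative feedback loop. In blood-forming cells NF-kB is best known for its part in inflammatory signalling, survival and lymphoid development.

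The libraries held 32.3 to 64.5 M reads, so that 3 reads, taken as the limit of detection for counting error only, equalled 0.0465 to 0.0928 CPM (counts of reads set to the same total in each library). Runx1, one of the genes joined in the fusion, lay at 218 to 244 CPM in ETV6-RUNX1 against 110.4 to 136 CPM in WT fetal liver, and at 143 to 194 against 86.7 to 105 CPM in marrow. All 10 HSC markers examined reached 1 CPM. Of the 8 T and NK cell markers 2 reached 1 CPM in some library, and the list summed to 16.1 to 27.0 CPM over all libraries. Several measures other than the members separate the fetal liver genotypes, and the marker sums are given beside the results below. The summed level of Y-linked genes was 64.6 to 119 CPM in WT fetal liver against 198 to 389 CPM in the ETV6-RUNX1 groups. The X-linked RNA Xist lay at 51.7 to 89.3 CPM in the fetal liver libraries and at 0.175 to 1.27 CPM in the marrow libraries. What Xist marks and the source of the cells therefore cannot be told apart. Mitochondrial genes took 1.34% to 1.69% of reads in WT and 0.921% to 1.1% in ETV6-RUNX1 fetal liver, and their part in the results was not tested.

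All 10 genes reached at least 1 CPM in at least 3 libraries and entered the test, which compared log2(CPM + 1) with limma over 14271 genes. A gene is called below when its p, adjusted by the Benjamini-Hochberg method over all those genes, was under 0.05. In fetal liver the fusion group exceeded WT for 7 of the 10 genes: Relb, Nfkbia, Tnfaip3, Nfkb2, Rel, Nfkbie and Nfkbiz. None was lower. Of all genes tested 24.8% were called higher in that comparison and 18.3% lower, and the median difference was 1.5 over the 10 genes against 0.08 over all genes. In bone marrow 8 of the 10 were higher, the same 7 and Nfkbib, and again none was lower, where 14.4% of all genes were called higher and 4.93% lower. The median there was 1.13 over the 10 genes against 0.13 over all genes. These are bulk samples, in which more cells of a type and more RNA per cell cannot be told apart.

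**Figure D1:**
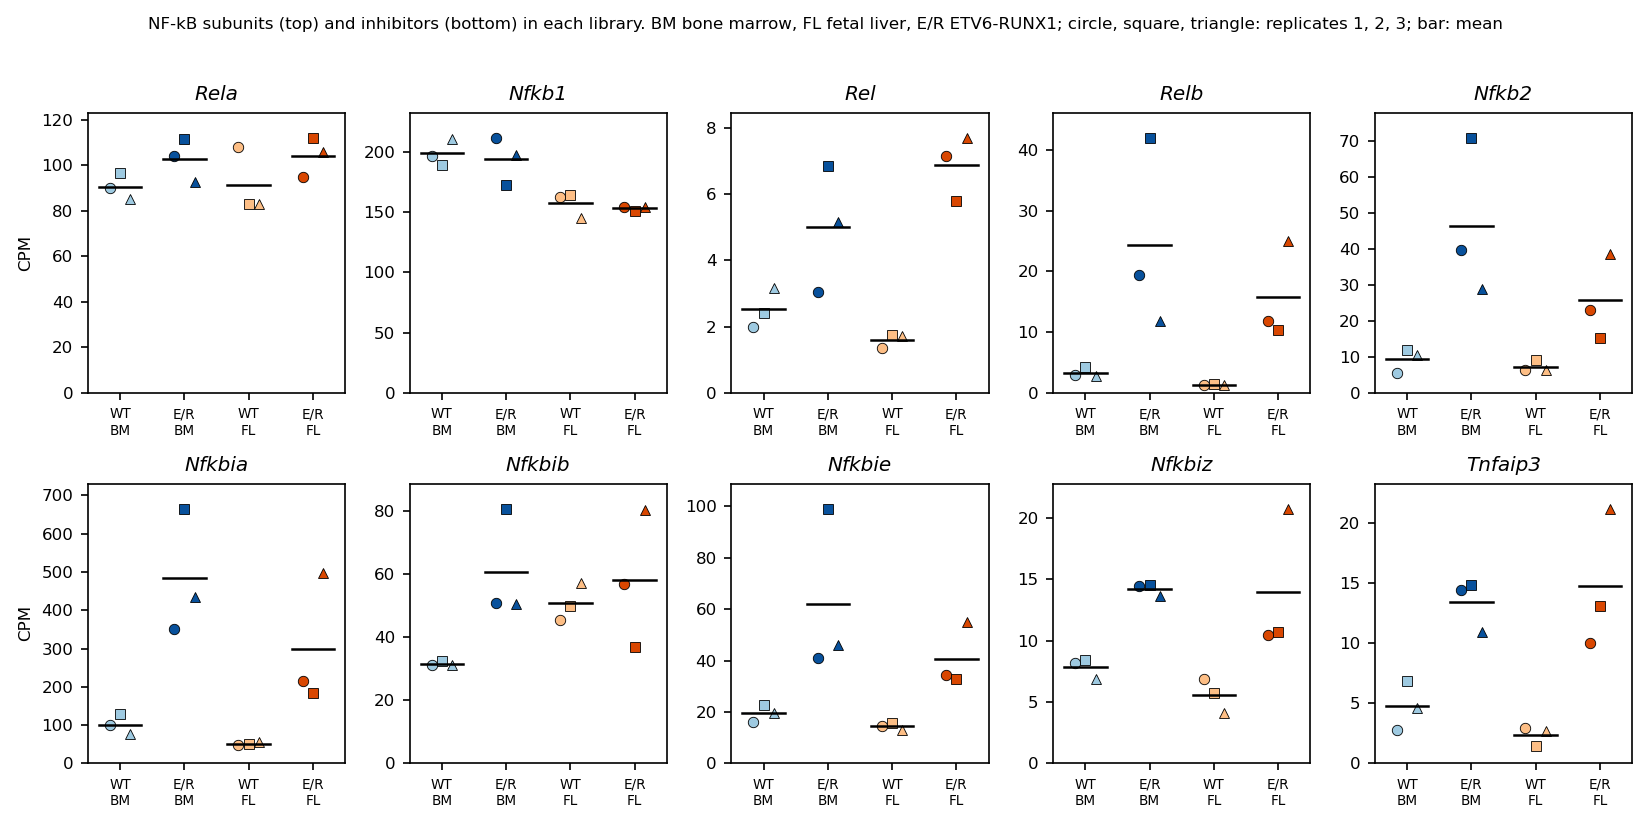
CPM of each gene in the 12 libraries, on axes that start at 0, with subunits above and inhibitors below. Circles, squares and triangles are replicates 1, 2 and 3 and bars are means of 3 libraries. Rela and Nfkb1 lie on one level in both genotypes of a source, while Relb goes from 1.23 to 1.46 CPM in WT fetal liver to between 10.3 and 25.0 CPM in ETV6-RUNX1 fetal liver.

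The canonical subunits Rela and Nfkb1 differed little between the genotypes. Rela (ENSMUSG00000024927, GRCm38 chromosome 19, 5637483 to 5648130, plus strand) encodes RelA, the p65 subunit with a strong activation domain. It lay at 108, 83.0 and 83.1 CPM in WT fetal liver replicates 1 to 3 and at 95.1, 112 and 106 CPM in ETV6-RUNX1 fetal liver. The ranges overlapped, and the difference in log2(CPM + 1) was 0.20 ± 0.14 (SE), with a 95% interval of -0.10 to 0.49 (limma adjusted p = 0.265). In marrow Rela lay at 90.2, 96.7 and 85.1 CPM in WT and at 104, 112 and 92.9 CPM in ETV6-RUNX1 libraries. These ranges overlapped too, with a difference of 0.18 ± 0.14 and an interval of -0.12 to 0.47 (limma adjusted p = 0.379).

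Nfkb1 (ENSMUSG00000028163, chromosome 3, 135584655 to 135691547, minus strand) encodes p105, the precursor of p50. In fetal liver its level was 163, 164 and 145 CPM in WT and 154, 151 and 154 CPM in ETV6-RUNX1 replicates 1 to 3. The ETV6-RUNX1 values lay inside the WT range, and the difference was -0.03 ± 0.11, with an interval of -0.28 to 0.21 (limma adjusted p = 0.833). In marrow it was 197, 189 and 210.1 CPM in WT and 210.9, 173 and 197 CPM in ETV6-RUNX1 cells, a difference of -0.04 ± 0.11 with an interval of -0.29 to 0.21 (limma adjusted p = 0.834). The annotation places the gene model Gm43430 inside Nfkb1 on the same strand, so a few of these reads may be shared.

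Rel, Relb and Nfkb2 were higher with the fusion. Relb (ENSMUSG00000002983, chromosome 7, 19606217 to 19629438, minus strand) encodes RelB, the subunit of the alternative branch, and had the highest fold of the 10 genes in both sources. It was 1.23, 1.46 and 1.26 CPM in WT fetal liver and 11.9, 10.3 and 25.0 CPM in ETV6-RUNX1 fetal liver. Every ETV6-RUNX1 library lay above every WT library, and the ratio of the means was 12.0, with a difference of 2.75 ± 0.38 on the log2(CPM + 1) scale (limma adjusted p = 5.89e-05). On that scale the change of such a low gene is understated: with a pseudocount of 0.1 in place of 1 it was 3.37. In marrow Relb was 2.91, 4.25 and 2.79 CPM in WT and 19.4, 41.9 and 11.8 CPM in ETV6-RUNX1 cells. The groups did not overlap here either, and the difference was 2.39 ± 0.38, a ratio of 7.34 (limma adjusted p = 0.00107).

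Nfkb2 (ENSMUSG00000025225, chromosome 19, 46304320 to 46312385, plus strand) encodes p100, precursor of p52 and an inhibitor of RelB until it is cut. In fetal liver it was 6.42, 9.24 and 6.25 CPM in WT and 23.0, 15.3 and 38.7 CPM in ETV6-RUNX1 replicates 1 to 3. All ETV6-RUNX1 libraries were above the WT ones, with a ratio of means of 3.51 and a difference of 1.60 ± 0.36 (limma adjusted p = 0.00253). In marrow it was 5.6, 11.8 and 10.5 CPM in WT and 39.6, 70.7 and 29.0 CPM in ETV6-RUNX1 cells, again without overlap. The ratio was 4.99 and the difference 2.16 ± 0.36 (limma adjusted p = 0.00143). Nfkb2 overlaps Psd and AC114539.1 on the opposite strand, and Psd averaged 3.04 CPM over the 12 libraries. The library kit marks strand, but whether strand was used in counting is not given in the sources used here, so part of the Nfkb2 reads is uncertain.

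Rel (ENSMUSG00000020275, chromosome 11, 23736847 to 23770970, minus strand) encodes c-Rel, the subunit best known from lymphocytes, and was the lowest of the subunits per exon length in all 4 groups. Its level was 1.34, 1.74 and 1.71 CPM in WT fetal liver and 7.14, 5.80 and 7.68 CPM in ETV6-RUNX1 fetal liver. The groups were apart, by 1.60 ± 0.24 and a ratio of 4.31 (limma adjusted p = 0.000121). In marrow Rel was 1.98, 2.41 and 3.16 CPM in WT and 3.05, 6.83 and 5.17 CPM in ETV6-RUNX1 cells. There ETV6-RUNX1 replicate 1 fell inside the WT range, and the difference of 0.74 ± 0.24, a ratio of 1.99, only just passed the threshold (limma adjusted p = 0.0436). The call was lost without any 1 of 8 libraries. The marrow libraries among these were WT replicate 1 (adjusted p = 0.13), WT replicate 2 (0.0979), ETV6-RUNX1 replicate 2 (0.172) and ETV6-RUNX1 replicate 3 (0.0867). The fetal liver libraries, which enter only through the shared spread, were WT replicates 1, 2 and 3 (0.0547, 0.0589 and 0.0571) and ETV6-RUNX1 replicate 1 (0.0574). With edgeR on the reads recovered from the table the adjusted p was 0.0731, and with median-of-ratios scaling the difference was 0.62 (limma adjusted p = 0.0813).

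**Figure D2:**
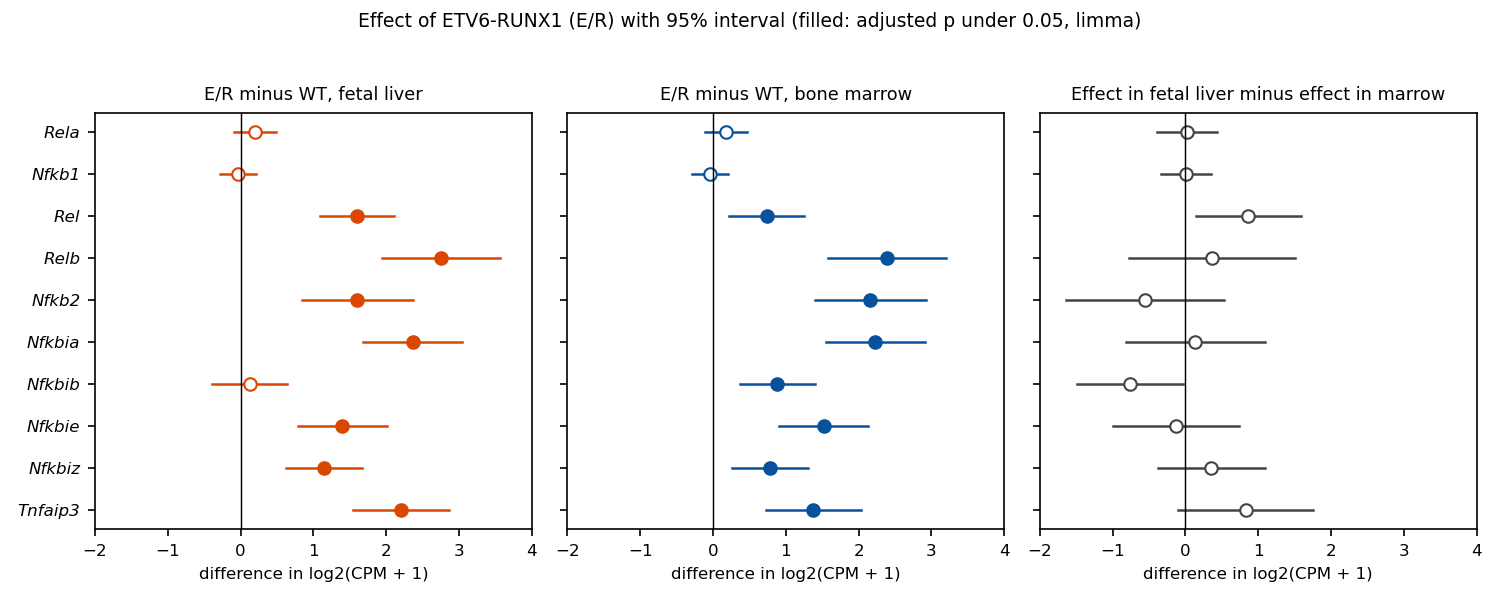
Difference between ETV6-RUNX1 and WT in log2(CPM + 1) for each gene in fetal liver and in marrow, and the difference between these effects, with 95% intervals from limma. Filled points are called. Rela and Nfkb1 sit near 0 in both sources, Nfkbib is called in marrow alone, and no point in the right panel is called.

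Among the inhibitors, Nfkbia (ENSMUSG00000021025, chromosome 12, 55489410 to 55492647, minus strand) encodes IkB-alpha, which binds canonical dimers and is rebuilt after each round of signalling. It was the most abundant of the 10 genes per exon length. Its level was 48.9, 49.9 and 56.0 CPM in WT fetal liver and 215, 183 and 496 CPM in ETV6-RUNX1 fetal liver. Each ETV6-RUNX1 library exceeded the highest WT library by more than the whole WT range, and the difference was 2.36 ± 0.32, a ratio of 5.78 (limma adjusted p = 4.82e-05). In marrow it was 99.9, 128 and 75.4 CPM in WT and 352, 665 and 434 CPM in ETV6-RUNX1 cells. The groups were again apart, by 2.23 ± 0.32 and a ratio of 4.78 (limma adjusted p = 0.00054).

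Tnfaip3 (ENSMUSG00000019850, chromosome 10, 19000910 to 19015657, minus strand) encodes A20, a ubiquitin-editing enzyme that damps signalling above the IkB kinase. In fetal liver it was 2.98, 1.42 and 2.67 CPM in WT and 10.02, 13.1 and 21.2 CPM in ETV6-RUNX1 replicates 1 to 3. The groups did not overlap and differed by 2.20 ± 0.31, a ratio of 6.27 (limma adjusted p = 6.53e-05). In marrow it was 2.76, 6.86 and 4.63 CPM in WT and 14.45, 14.9 and 10.9 CPM in ETV6-RUNX1 cells. The lowest ETV6-RUNX1 library was above the highest WT library, and the difference was 1.38 ± 0.31, a ratio of 2.82 (limma adjusted p = 0.00762).

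Nfkbie (ENSMUSG00000023947, chromosome 17, 45555703 to 45563169, plus strand) encodes IkB-epsilon, a slower relative of IkB-alpha. It was 14.4, 15.8 and 13.1 CPM in WT fetal liver and 34.3, 32.6 and 55.0 CPM in ETV6-RUNX1 fetal liver, groups that lay apart by 1.39 ± 0.29 and a ratio of 2.81 (limma adjusted p = 0.0014). Marrow levels were 16.1, 22.9 and 19.4 CPM in WT and 40.8, 99.0 and 45.9 CPM in ETV6-RUNX1 cells, apart by 1.52 ± 0.29 and a ratio of 3.18 (limma adjusted p = 0.00303). Nfkbiz (ENSMUSG00000035356, chromosome 16, 55811375 to 55838899, minus strand) encodes the nuclear IkB-zeta, which works with p50 at a subset of promoters. It was 6.85, 5.74 and 4.09 CPM in WT fetal liver and 10.5, 10.7 and 20.7 CPM in ETV6-RUNX1 fetal liver. These groups were apart by 1.15 ± 0.24, a ratio of 2.51 (limma adjusted p = 0.00183).

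In marrow Nfkbiz was 8.21, 8.43 and 6.85 CPM in WT and 14.48, 14.53 and 13.6 CPM in ETV6-RUNX1 cells. The groups were narrow and did not overlap, and the difference was 0.79 ± 0.24, a ratio of 1.81 (limma adjusted p = 0.0361). That call was lost without any 1 of the 6 marrow libraries: the adjusted p was 0.0603, 0.0629 and 0.102 without WT replicates 1, 2 and 3, and 0.0871, 0.0951 and 0.054 without ETV6-RUNX1 replicates 1, 2 and 3. With edgeR it was 0.0768, and with the replicate number as a block 0.0609.

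Nfkbib (ENSMUSG00000030595, chromosome 7, 28758251 to 28767512, minus strand) encodes IkB-beta, another cytoplasmic inhibitor. In fetal liver it was 45.2, 49.8 and 57.2 CPM in WT and 56.9, 36.8 and 80.4 CPM in ETV6-RUNX1 replicates 1 to 3. The ETV6-RUNX1 libraries lay on both sides of the WT range, and the difference was 0.13 ± 0.24 with an interval of -0.39 to 0.64 (limma adjusted p = 0.696). Marrow libraries held 31.3, 32.5 and 31.1 CPM in WT and 50.9, 80.6 and 50.4 CPM in ETV6-RUNX1 cells. Here the groups were apart, by 0.88 ± 0.24 and a ratio of 1.92 (limma adjusted p = 0.0207). The adjusted p was 0.0994 without ETV6-RUNX1 marrow replicate 2, where the difference was 0.66, and 0.0515 without WT marrow replicate 3. Nfkbib overlaps Sirt2, which averaged 92.5 CPM, and Ccer2 on the opposite strand, so its values carry the same uncertainty as those of Nfkb2.

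Counted by library rather than by test, 7 of the 10 genes had every ETV6-RUNX1 library above every WT library in fetal liver, where 32.3% of all genes did. In marrow 7 of the 10 did as well, against 23.6% of all genes. The scale of the table bears on these shares, because the median difference of all genes in marrow was 0.13 in CPM, 0.01 after median-of-ratios scaling and -0.04 after quantile normalization. In fetal liver those medians were 0.08, 0.01 and -0.10. The split of all calls moved with it, from 2059 higher and 704 lower in marrow to 1480 and 1313 with median-of-ratios scaling and 1248 and 1324 with quantile normalization. In fetal liver 3544 higher and 2607 lower became 3324 and 2994, and 2717 and 3746. Among the 10 genes, 7 were called higher in fetal liver under each of these scalings, and in marrow 6 with median-of-ratios scaling and 5 with quantile normalization. The 5 were Nfkb2, Nfkbia, Nfkbie, Relb and Tnfaip3.

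The start-site windows of these genes were searched for the kB consensus motif, because most members moved together and the motif is the known binding sequence of NF-kB dimers. Windows of 300 bases, 250 before to 50 after the start, came from RefSeq on GRCm38.p6 for 7 of the 10 members. The motif was GGGRNWYYCC, where R is A or G, W is A or T, Y is C or T and N is any base. Both strands were read and overlapping matches counted as 1 place. At least 1 match lay in a window of Nfkbia, Nfkbie, Nfkb2, Rel and Tnfaip3, and no window of Rela or Nfkbib held these letters. Nor did the Tnfaip3 window at chr10:19011914-19012213. Of all 32851 windows 4.51% held a match, as did 5.14% of 27025 genes. A match describes the letters only, and these data do not measure binding. The bases before the start are printed whole for Nfkbia and Nfkbie, the inhibitors with the clearest single matches, in the direction of transcription with the match in capitals.
Nfkbia, chr12:55492648-55492897, minus strand: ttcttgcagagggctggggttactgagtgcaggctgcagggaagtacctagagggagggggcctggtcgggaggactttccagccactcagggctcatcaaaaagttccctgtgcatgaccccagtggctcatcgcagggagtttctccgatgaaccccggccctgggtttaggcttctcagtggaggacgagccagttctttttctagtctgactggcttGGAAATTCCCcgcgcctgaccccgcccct
Nfkbie, chr17:45555450-45555699, plus strand: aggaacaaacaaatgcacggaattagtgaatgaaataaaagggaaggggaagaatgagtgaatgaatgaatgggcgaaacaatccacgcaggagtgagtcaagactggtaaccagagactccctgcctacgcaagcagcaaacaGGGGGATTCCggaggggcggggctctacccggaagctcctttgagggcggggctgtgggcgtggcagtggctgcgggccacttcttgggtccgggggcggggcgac

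For the other members with a match, each match before the start is shown with up to 10 bases on each side. Nfkb2 had 3 windows and Tnfaip3 2, against 1 each for Rela and Nfkbib, so they had more places to match.
Nfkb2, chr19:46304688-46304717, plus strand: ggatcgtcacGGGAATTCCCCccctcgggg
Nfkb2, chr19:46304716-46304736, plus strand: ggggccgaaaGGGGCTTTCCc
Nfkb2, chr19:46305449-46305478, plus strand: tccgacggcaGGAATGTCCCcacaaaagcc
Nfkb2, chr19:46305695-46305724, plus strand: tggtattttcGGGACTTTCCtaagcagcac
Rel, chr11:23771042-23771071, minus strand: cgtaagcagcGGGAAATCCCCccccctccc
Tnfaip3, chr10:19015516-19015545, minus strand: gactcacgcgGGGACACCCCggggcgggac
Tnfaip3, chr10:19015411-19015432, minus strand: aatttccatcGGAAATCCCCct
In the Nfkbia window the match begins 29 bases before the start and in the Nfkbie window 106 bases before it. The Nfkb2 stretches lie in annotated exon sequence, except for 1 base of the last. The capitals in the first Nfkb2 line and in the Rel line cover overlapping matches on both strands. All 5 members with a match were called higher in both sources, as were Relb and Nfkbiz, which with Nfkb1 were not matched in the RefSeq table. Of the members without a match, Nfkbib was called higher in marrow and Rela in neither source. The motif was chosen with earlier results of these data known, so these counts are no independent evidence.

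The order of the members was compared per kb of exon. In WT fetal liver Nfkbia, at 32.0 ± 2.41 CPM per kb (SD, n = 3), and Rela, at 29.8 ± 4.73, stood at the top with overlapping ranges. They were followed by Nfkbib at 23.4 ± 2.79, Nfkb1 at 13.0 ± 0.869 and Nfkbie at 4.75 ± 0.45 CPM per kb, each apart from the next. Nfkb2 (1.59) and Nfkbiz (1.11) overlapped. At the bottom Tnfaip3 (0.326) overlapped with Relb (0.338) and with Rel (0.214 CPM per kb), and Relb and Rel were apart.

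In ETV6-RUNX1 fetal liver Nfkbia, at 185 ± 107 CPM per kb, stood clear of Rela at 34 ± 2.77, and Rel remained the lowest at 0.921 ± 0.13. Between these ends the ranges of neighbours in the order ran into one another, except that Nfkb1 (12.7) was apart from Nfkb2 (5.6 CPM per kb). In WT marrow Nfkbia at 62.8 ± 16.4 was already apart from Rela at 29.5 ± 1.89 CPM per kb, and in ETV6-RUNX1 marrow it reached 300.2 ± 101 against 33.5 ± 3.08. Rel was lowest in both marrow groups, at 0.338 ± 0.0802 and 0.672 ± 0.254 CPM per kb.

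**Figure D3:**
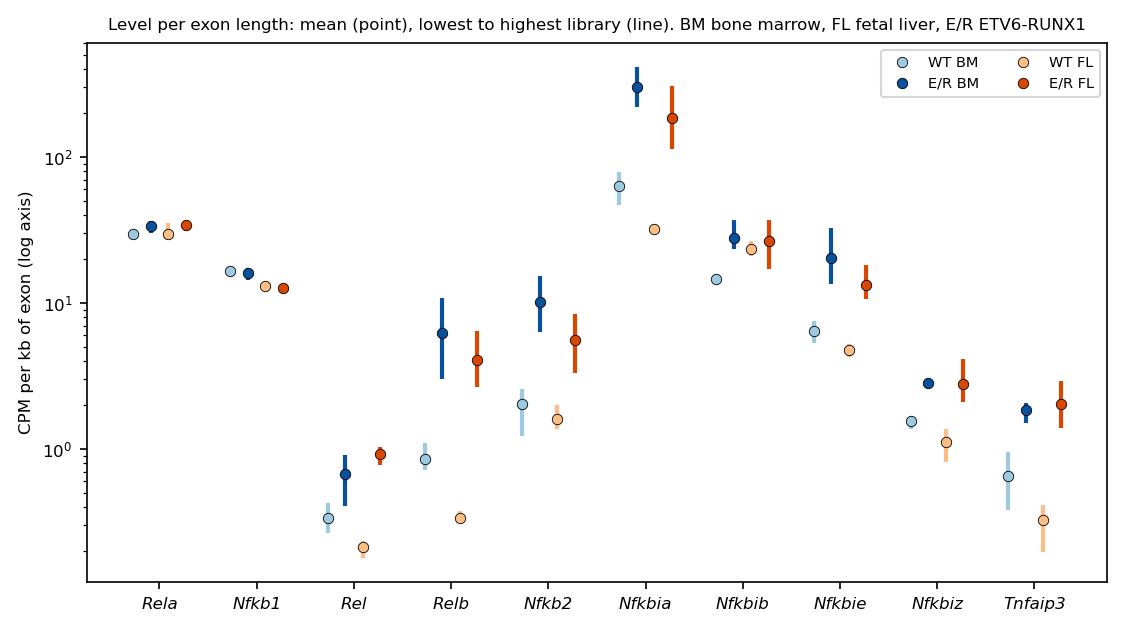
Level per kb of exon of each gene on a log axis, with the mean of 3 libraries as a point and the lowest to highest library as a line. Nfkbia is at the top in every group, from 32.0 CPM per kb in WT fetal liver to 300.2 in ETV6-RUNX1 marrow, and Rel is at the bottom, from 0.214 to 0.921.

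The level of the IkB-alpha gene relative to its main partner subunit was higher in every ETV6-RUNX1 library than in any WT library of the same source. In fetal liver the ratio of Nfkbia to Rela, both per kb, was 0.862, 1.15 and 1.29 in WT and 4.31, 3.13 and 8.93 in ETV6-RUNX1 replicates 1 to 3. The marrow values were 2.11, 2.53 and 1.69 in WT and 6.45, 11.4 and 8.91 in ETV6-RUNX1 cells. Both exact two-sided permutation tests gave p = 0.1, the smallest value that 3 libraries against 3 allow, so these ratios cannot pass 0.05 by this test.

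RNA of Nfkb2, the precursor gene of the alternative branch, was likewise higher relative to that of the canonical precursor gene Nfkb1. The ratio of Nfkb2 to Nfkb1 per kb was 0.122 ± 0.0234 (SD, n = 3) in WT and 0.439 ± 0.201 in ETV6-RUNX1 fetal liver. The marrow ratios were 0.124 ± 0.0453 in WT and 0.652 ± 0.371 in ETV6-RUNX1 cells. The lowest ETV6-RUNX1 ratio, 0.266 in fetal liver and 0.387 in marrow, was above the highest WT ratio, 0.148 and 0.165, with an exact permutation p of 0.1 in each source. Nfkbia and Nfkb2 were called higher in these same libraries and Rela and Nfkb1 were not. Both ratios therefore restate those results and add no separate evidence.

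The series title asks whether the fusion acts differently in fetal and adult cells, and the difference between the effects tests this gene by gene. None of the 10 genes was called, where 9.19% of all genes were. At an unadjusted p under 0.05 there were 2, Rel and Nfkbib, by limma and also 2 by edgeR and by DESeq2. The shares of all genes at that p were 26.6%, 25.2% and 26.4%. Rel differed from WT by 0.86 ± 0.34 more in fetal liver than in marrow, with an interval of 0.14 to 1.58 (limma adjusted p = 0.121). Nfkbib went the other way, with -0.76 ± 0.34 and an interval of -1.48 to -0.03 (limma adjusted p = 0.173). Tnfaip3 had 0.83 ± 0.43, from -0.10 to 1.75 (limma adjusted p = 0.24).

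For Nfkbia, Relb and Nfkb2, the genes with the highest folds in marrow, the intervals were wide. The effect on Nfkbia differed between the sources by 0.14, with an interval of -0.82 to 1.1, the effect on Relb by 0.36, from -0.78 to 1.51, and the effect on Nfkb2 by -0.56, from -1.64 to 0.53. For Rela and Nfkb1 the intervals were narrower, -0.40 to 0.43 and -0.34 to 0.35. That Nfkbib was called in marrow and not in fetal liver is thus not shown to be a difference between the sources.

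Fetal liver and marrow were also compared within a genotype. These comparisons use the libraries already described, and they share them with the genotype comparisons. Xist RNA separated the sources as well, and its part in these differences was not tested. In WT cells none of the 10 genes was called, where 11.1% of all genes were, and DESeq2 called 3, where it called 14.9% of all genes. At an unadjusted p under 0.05 there were 5 by limma, against 25.3% of all genes, and 4 by edgeR, against 25.5%. Nfkbia, Nfkb1, Relb, Rel and Nfkbie were lower in each WT fetal liver library than in any WT marrow library, as were 18.9% of all genes, and Nfkbib was higher, as were 10.6%. The mean of Nfkbia was 51.6 ± 3.89 CPM (SD, n = 3) in fetal liver and 101 ± 26.3 CPM in marrow, a difference of -0.93 ± 0.32 (limma adjusted p = 0.0775). Nfkbib was 50.7 ± 6.05 CPM in fetal liver and 31.6 ± 0.758 CPM in marrow, a difference of 0.66 ± 0.24 (limma adjusted p = 0.0982). DESeq2 called these and Relb, for which the limma difference was -0.88 ± 0.38 (limma adjusted p = 0.157).

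In ETV6-RUNX1 cells 1 of the 10 genes was called, where 28.6% of all genes were. Nfkb1 was 153 ± 1.81 CPM in fetal liver and 194 ± 19.4 CPM in marrow (SD, n = 3), a difference of -0.33 ± 0.11 (limma adjusted p = 0.0438), and the groups did not overlap. In WT cells the difference of Nfkb1 was -0.34 ± 0.11, from 199 ± 10.7 CPM in marrow to 157 ± 10.5 CPM in fetal liver (limma adjusted p = 0.0771). The sizes in the 2 genotypes were close, on either side of the threshold. With median-of-ratios scaling the difference in ETV6-RUNX1 cells was -0.17 (limma adjusted p = 0.338), and neither edgeR nor DESeq2 called a member there. The call was also lost without any 1 of 9 libraries. The adjusted p was 0.166 and 0.101 without ETV6-RUNX1 marrow replicates 1 and 3, and 0.102, 0.103 and 0.0787 without ETV6-RUNX1 fetal liver replicates 1, 2 and 3. Without a WT library, which enters only through the shared spread, it was 0.0554 (marrow replicate 2) and 0.0535, 0.0604 and 0.0526 (fetal liver replicates 1, 2 and 3).

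The ETV6-RUNX1 libraries of a group did not carry the change equally. In fetal liver replicate 3 had the highest level of 9 of the 10 genes, all but Rela, and in marrow replicate 2 had the highest level of 9, all but Nfkb1. WT marrow also had 1 library, replicate 2, that was highest for 8 of the 10 genes. Relb, for example, stood 3.49 above the WT mean on the log2(CPM + 1) scale in fetal liver replicate 3 and 2.48 and 2.29 above it in replicates 1 and 2. In marrow it stood 3.33 above in replicate 2 and 2.26 and 1.58 above in replicates 1 and 3. The coefficient of variation of Relb in the 3 ETV6-RUNX1 libraries was 51.3% in fetal liver and 64.2% in marrow, against 9.33% and 24.3% in WT. The coefficient was lower in ETV6-RUNX1 than in WT cells for Nfkbiz (3.62% against 10.9%) and Tnfaip3 (16.2% against 43.1%) in marrow, and for Nfkb1 (1.18% against 6.67%) and Rela (8.16% against 15.9%) in fetal liver.

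**Figure D4:**
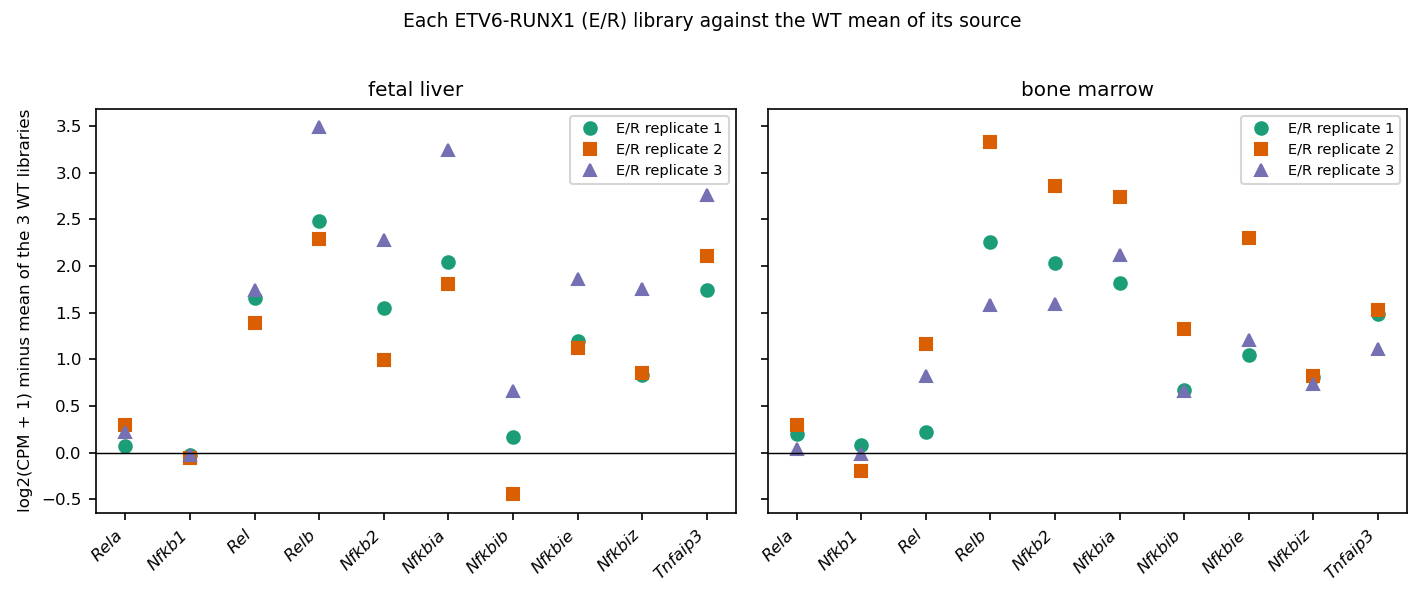
log2(CPM + 1) of each ETV6-RUNX1 library minus the mean of the 3 WT libraries of its source, by gene. In fetal liver replicate 3 is highest for all genes but Rela, and in marrow replicate 2 is highest for all but Nfkb1. For Relb the points run from 2.29 to 3.49 in fetal liver and from 1.58 to 3.33 in marrow.

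Several marker lists of other cell types differed in summed level between the genotypes, and some of them between these libraries. Of the 9 monocyte and macrophage markers used 8 reached 1 CPM in some library, and C1qa did not. Their summed level was 256 to 318 CPM in WT and 769 to 970 CPM in ETV6-RUNX1 fetal liver, and 261 to 352 CPM in WT and 348 to 518 CPM in ETV6-RUNX1 marrow. Fetal liver replicate 3 had 970 CPM against 769 and 799 CPM in replicates 1 and 2, and marrow replicate 2 had 518 CPM against 348 and 424 CPM in replicates 1 and 3.

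The 8 megakaryocyte markers, which all reached 1 CPM, summed to 2115 CPM in marrow replicate 2 against 667 and 477 CPM in ETV6-RUNX1 replicates 1 and 3 and 1375 to 1837 CPM in WT marrow. In fetal liver they summed to 3110 to 4613 CPM in WT and 7330 to 8127 CPM in ETV6-RUNX1 cells. Neutrophil markers went the other way in fetal liver, from 39.7 to 137 CPM in WT to between 12.7 and 20.5 CPM. In marrow the neutrophil sums were 4.46 to 139 CPM in WT and 1.76 to 3.16 CPM in ETV6-RUNX1 cells. Of 10 erythroid markers 8 reached 1 CPM, and they summed to 731 to 1013 CPM in WT and 1451, 1871 and 2227 CPM in ETV6-RUNX1 fetal liver replicates 1 to 3. Their marrow sums of 236 to 520 CPM in WT and 421 to 633 CPM in ETV6-RUNX1 cells overlapped. Of 8 stromal and endothelial markers 7 reached 1 CPM, with sums of 29.4 to 52.8 CPM in WT and 101 to 149 CPM in ETV6-RUNX1 fetal liver, and of 29.2 to 70.2 and 45.1 to 66.2 CPM in marrow. The HSC markers themselves summed to 1634 to 1979 CPM in WT and 4157 to 4355 CPM in ETV6-RUNX1 fetal liver. Their marrow sums, 1751 to 2573 CPM in WT and 2938 to 3229 CPM in ETV6-RUNX1 cells, did not overlap either. Of 8 B cell markers 3 reached 1 CPM in some library. They summed to 51.0 to 53.7 CPM in WT and 56.0 to 82.6 CPM in ETV6-RUNX1 fetal liver. Their marrow sums, 39.3 to 51.2 CPM in WT and 42.4 to 52.9 CPM in ETV6-RUNX1 cells, overlapped. The part of all these markers in the result was not tested.

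Without the 2 libraries that stood highest, ETV6-RUNX1 fetal liver replicate 3 and ETV6-RUNX1 marrow replicate 2, 7 of the 10 genes were called higher in fetal liver, where 21.9% of all genes were, and 7 in marrow, where 9.34% were. Rel in marrow was the call lost (difference 0.52, limma adjusted p = 0.172). This leaves 2 libraries in each ETV6-RUNX1 group, whose spread is taken from all groups. Because these libraries were chosen for their high members, leaving them out also lowers the spread, so the counts do not measure how firm the calls are. The difference of Nfkbia between the sources in WT cells stayed at -0.93, while its limma adjusted p went from 0.0775 to 0.00631. Leaving out marrow replicate 2 alone left 5 calls in marrow, where 8.42% of all genes were called higher.

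Y-linked RNA also separated the fetal liver genotypes. Its summed level was 64.6 to 119 CPM in WT and 198 to 220 CPM in ETV6-RUNX1 fetal liver, so in that source it and the genotype cannot be told apart. In marrow the ranges, 229 to 288 and 268 to 389 CPM, overlapped. With this level as a covariate none of the 10 genes was called in fetal liver, where 4.72% of all genes were called higher. The estimates were positive for 9 of the 10, with 4 at an unadjusted p under 0.05, where 18.5% of all genes were. Nfkbia had a difference of 2.31 (limma adjusted p = 0.057), Rel 1.63 (0.0765), Relb 2.13 (0.135), Tnfaip3 1.11 (0.29), Nfkbiz 1.16 (0.237), Nfkb2 1.31 (0.381) and Nfkbie 1.09 (0.354). In marrow 5 were called with the covariate, Nfkb2, Nfkbia, Nfkbie, Relb and Tnfaip3, where 7.95% of all genes were called higher. Processed pseudogenes took 1.72% to 2.39% of reads in WT and 2.29% to 2.74% in ETV6-RUNX1 marrow, and with that share as a covariate the same 5 genes were called in marrow, where 20.0% of all genes were called higher, and 7 in fetal liver, where 19.0% were.

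The likeness of the members to one another and to other genes was described by the Pearson correlation of log2(CPM + 1) over the 12 libraries. These libraries form 4 groups, so the values largely restate the group differences and carry no p. Relb was most like Nfkbia among the members (r = 0.98), and the member least like Relb was Nfkb1 (r = 0.07). Among the 12192 other named genes tested, Cxcl2 was most like Nfkbia (0.98), Icam1 most like Relb (0.98), Vps37c most like Nfkb2 (0.98) and Gpr132 most like Nfkbie (0.98). Spic was most like Rel (0.97), Dop1b most like Tnfaip3 (0.97) and Nek8 most like Nfkbiz (0.96). The nearest genes of the other members were B3galt1 for Nfkb1 (0.95), Tnrc6a for Rela (0.90) and Sspo for Nfkbib (0.91).

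The 10 genes were set beside 102 other genes of the pathway, listed by role, of which 95 were tested. In fetal liver 67 of the 95 were called higher and 3 lower, with a median difference of 0.93. In marrow 42 were higher and none lower, with a median of 0.59. The medians of all genes were 0.08 and 0.13. Of all genes 24.8% were called higher and 18.3% lower in fetal liver, and 14.4% higher and 4.93% lower in marrow. Each count by role below is to be read beside these shares. The list was written with earlier results of these data known, so its counts describe it and are no independent evidence of a direction. The 3 lower genes in fetal liver were the receptor gene Il1r1 and the listed targets Sod2 and Slc11a2.

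**Figure D5:**
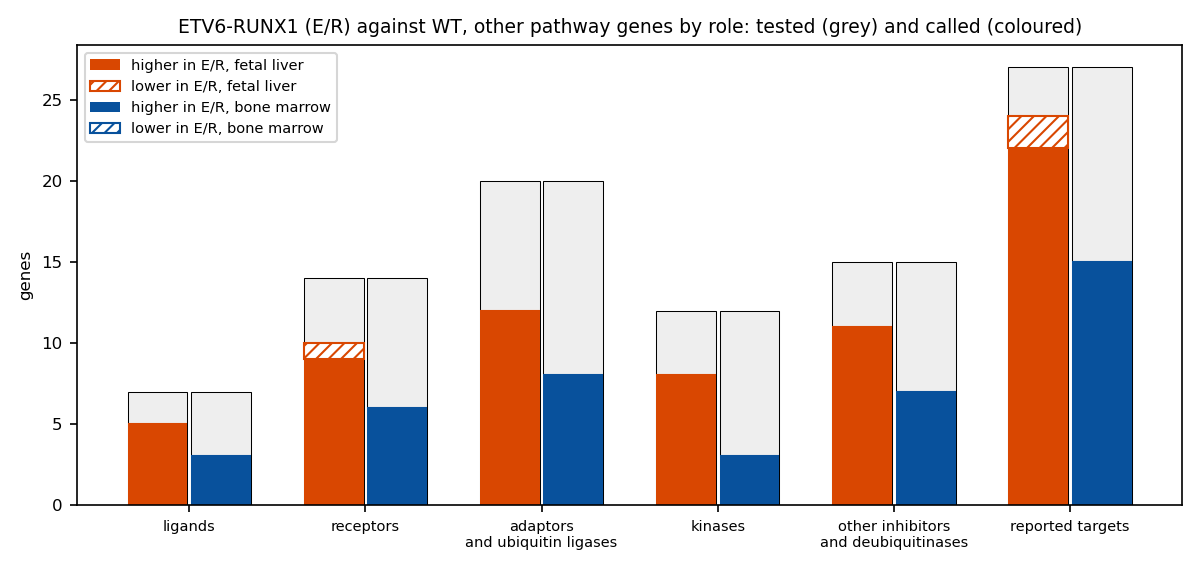
Number of other NF-kB pathway genes by role that were tested (grey), called higher (solid) and called lower (hatched) in ETV6-RUNX1 against WT cells, in fetal liver and in marrow. The targets hold 22 higher and 2 lower of 27 in fetal liver and 15 higher of 27 in marrow, and in no role is a gene called lower in marrow. Of all genes 24.8% were called higher in fetal liver and 14.4% in marrow.

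Of 7 ligand genes tested, 5 were higher in fetal liver and 3, Lta, Ltb and Tnf, in marrow. Ltb encodes lymphotoxin beta, a ligand that drives the alternative branch. It was 10.1, 18.9 and 4.75 CPM in WT and 122, 78.9 and 434 CPM in ETV6-RUNX1 fetal liver, a difference of 3.91 ± 0.89 (limma adjusted p = 0.00294). In marrow it went from 2.86, 12.4 and 9.09 CPM in WT to 195, 451 and 21.5 CPM in ETV6-RUNX1 cells, a difference of 3.97 ± 0.89 (limma adjusted p = 0.00817; 0.0509 with no filter on low values). Its high libraries were those in which most members were high, fetal liver replicate 3 and marrow replicate 2. Tnfsf14, the gene of the ligand LIGHT, was 36.7 ± 3.92 CPM in WT and 97.3 ± 6.92 CPM in ETV6-RUNX1 fetal liver (limma adjusted p = 1.5e-05), and 20.5 ± 4.33 and 20.8 ± 0.68 CPM in marrow (limma adjusted p = 0.894).

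Of 14 receptor genes 9 were higher and 1 lower in fetal liver, and 6 were higher in marrow. Tnfrsf13c, which encodes the BAFF receptor, had a mean of 5.5 ± 1.44 CPM in WT and 23.6 ± 4.55 CPM in ETV6-RUNX1 fetal liver (difference 1.93 ± 0.22, limma adjusted p = 1.09e-05). In marrow it had 5.20 ± 1.39 and 10.5 ± 0.758 CPM (0.92 ± 0.22, limma adjusted p = 0.011). Tnfrsf1a, a TNF receptor gene, was 129 ± 15.5 CPM in WT and 195 ± 6.82 CPM in ETV6-RUNX1 marrow (0.59 ± 0.14, limma adjusted p = 0.00889). In fetal liver it was 113 ± 4.44 and 160.2 ± 26.9 CPM. That difference was 0.48 ± 0.14 (limma adjusted p = 0.0104), and 0.35 (0.0529) without ETV6-RUNX1 fetal liver replicate 3.

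Of 20 adaptor and ubiquitin ligase genes, 12 were higher in fetal liver and 8 in marrow. Traf1, an adaptor gene and known NF-kB target, was 3.97 ± 1.12 CPM in WT and 23.9 ± 6.90 CPM in ETV6-RUNX1 fetal liver (2.31 ± 0.26, limma adjusted p = 1.14e-05). Marrow libraries held 22.7 ± 5.11 and 61.9 ± 20.6 CPM (1.38 ± 0.26, limma adjusted p = 0.0033). Rbck1, a component of the linear ubiquitin ligase, was 84.5 ± 17.9 CPM in WT and 155 ± 3.77 CPM in ETV6-RUNX1 marrow (0.89 ± 0.16, limma adjusted p = 0.00268). In fetal liver it had 77.4 ± 3.11 and 90.9 ± 15.6 CPM (0.22 ± 0.16, limma adjusted p = 0.309).

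Of 12 kinase genes, 8 were higher in fetal liver and 3 in marrow, Chuk, Map3k3 and Map3k8. Map3k8, the kinase gene also called Tpl2, was 9.31 ± 1.28 CPM in WT and 18.5 ± 0.609 CPM in ETV6-RUNX1 marrow (0.92 ± 0.23, limma adjusted p = 0.0125). Map3k3 was 20.6 ± 3.65 CPM in WT and 45.1 ± 8.71 CPM in ETV6-RUNX1 fetal liver (1.09 ± 0.18, limma adjusted p = 0.000297). Its marrow difference of 0.57 ± 0.18 (limma adjusted p = 0.0403) was past the threshold neither with edgeR (0.113) nor without any 1 of 5 libraries. Those were WT marrow replicates 2 and 3 (0.107 and 0.0913), ETV6-RUNX1 marrow replicates 2 and 3 (0.135 and 0.0915) and WT fetal liver replicate 2 (0.0508).

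Of 15 other inhibitor and deubiquitinase genes, 11 were higher in fetal liver and 7 in marrow. Tnip3, whose product binds A20, was 21.5, 33 and 21.7 CPM in WT and 239, 206 and 329.5 CPM in ETV6-RUNX1 fetal liver (3.30 ± 0.22, limma adjusted p = 4.98e-08). The marrow values were 102, 120.3 and 82.4 CPM in WT and 264, 383 and 284 CPM in ETV6-RUNX1 cells (1.60 ± 0.22, limma adjusted p = 0.00037). Of 27 listed target genes, 22 were higher and 2 lower in fetal liver and 15 were higher in marrow. Ccl5, a chemokine gene, was 2.23, 1.05 and 2.45 CPM in WT and 155, 111 and 264 CPM in ETV6-RUNX1 fetal liver (5.88 ± 0.37, limma adjusted p = 3.69e-08). In marrow Ccl5 went from 41.1, 24.9 and 18.8 CPM to 129, 330.4 and 198 CPM (2.88 ± 0.37, limma adjusted p = 0.000301).

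With the Y-linked level as a covariate, 5 of the 9 fetal liver calls among these named pathway genes were lost. Ltb had a difference of 2.39 (limma adjusted p = 0.54), Tnfsf14 1.19 (0.0532), Tnfrsf1a 0.59 (0.276), Map3k3 0.85 (0.236) and Map3k8 1.41 (0.106). In marrow the call of Map3k3 was lost too, at 0.50 (0.144), and those of Ltb, Tnfrsf13c, Tnfrsf1a, Traf1, Rbck1, Map3k8, Tnip3 and Ccl5 were not.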

How the data were processed

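The authors deposited 1 table of CPM per gene for 12 libraries; STAR 2.5.1a, Subread, featureCounts 1.4.6-p5, Salmon 0.8.2, edgeR, limma and GRCm38 are named, without roles, in the submitters' processing notes. Libraries were made with a stranded kit for total RNA, per the labels' protocols, and the annotation and the strand setting in counting are not given in the sources used here. The table had 40757 entries, and 276 that listed a gene ID again were dropped. In every library 100% of values were whole multiples of the smallest value (tolerance 0.01 reads), so whole reads were recovered. Repeat reads of one molecule cannot be told from others, so limits of detection cover counting error only.

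Genes that reached 1 CPM in 3 or more of the 12 libraries were tested with limma 3.58.1 (R 4.3.3; lmFit, eBayes with trend, two-sided) on log2(CPM + 1), with 4 group coefficients and 8 residual degrees of freedom. Calls are Benjamini-Hochberg adjusted p under 0.05 over 14271 genes. The fit was first tested on simulated data. Positions and exon lengths came from GENCODE M21 (GRCm38; 99.4% of gene IDs found), start-site windows from RefSeq.

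The alternatives were a pseudocount of 0.1, no filter, a mean of at least 5 CPM, median-of-ratios and quantile scaling, the replicate number as a block, array weights, the Y-linked level or the share of processed pseudogenes as a covariate, edgeR 4.0.16 (quasi-likelihood, TMM) and DESeq2 1.42.0 on the recovered reads, a fit of the 6 compared libraries alone, and each library left out. Leaving out 2 high libraries together was added after seeing the data. The members, lists, roles and motif were chosen with earlier results of these data known. All members are named; of the other pathway genes, the called gene with the smallest limma p in each role and genotype comparison; and for each member the other named gene tested with the highest correlation. A listed cell type marker is not reported here.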

Additional observations from a re-analysis of the deposited data

Results flagged for a closer look

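For 3 of the named pathway genes outside the 10 members, the effect of ETV6-RUNX1 differed between fetal liver and marrow by limma's test of that difference, a test that called 9.19% of all genes. The named genes had been picked for the smallest limma p of their role in a genotype comparison of the same libraries. Their p-values for the difference are thus not independent of that choice. Of the 95 other pathway genes tested the test of the difference called 15 with a positive difference, fetal liver minus marrow, and 2, Il1r1 and Sod2, with a negative one. The rise of Ccl5 was 2.995 ± 0.52 (SE) larger in fetal liver on the log2(CPM + 1) scale (limma adjusted p = 0.00299), where its WT level was 1.91 ± 0.75 CPM (SD, n = 3) against 28.2 ± 11.5 CPM in marrow. The rise of Tnip3 was 1.69 ± 0.30 larger in fetal liver (limma adjusted p = 0.00353), and it too started lower there, at 25.4 ± 6.54 against 101 ± 19.0 CPM. The difference for Tnfsf14 was 1.35 ± 0.23 (limma adjusted p = 0.00258), beside a marrow difference of 0.04 ± 0.16. With the Y-linked level as a covariate the difference was 2.74 for Ccl5 (limma adjusted p = 0.0594) and 1.21 for Tnfsf14 (0.0569), no longer past the threshold, and the call of Tnip3 was not lost. None of the 10 members was called by that test.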

How the results depend on the processing

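In fetal liver 7 members were called higher, 7 when any 1 library was left out, and 0 with the Y-linked level as a covariate. Of all 14271 genes 3544 were called higher there, and 674 with that covariate. Leaving out 1 library moved that count as well, for example to 3853 without WT marrow replicate 1 and 3289 without WT fetal liver replicate 1. In marrow 8 members were called, 5 to 8 when 1 library was left out, and 5 with no filter on low values, with quantile normalization, with the Y-linked level and with the processed pseudogene share as a covariate. Of all genes 2059 were called higher in marrow. In those fits, in that order, it was 1484 (of 29278), 1248, 1134 and 2857. Without ETV6-RUNX1 marrow replicate 2 it was 1201, beside 5 members. Without ETV6-RUNX1 marrow replicate 3 it was 2178, beside 6 members. For the difference between the sources the member count was 0, 0 when any 1 library was left out, and 1 (Rel) with array weights. Of all genes 1311 were called for that difference, and 3637 with array weights. Without WT marrow replicate 1 the count over all genes was 2332, and without WT marrow replicate 2 it was 731. For fetal liver against marrow in WT cells the member count of 0 became 5 with array weights, 1 with the pseudogene share and 3 with DESeq2, with only the 6 libraries compared and without the 2 high ETV6-RUNX1 libraries. Calls over all genes went from 1591 to 4401 with array weights, 1936 with the pseudogene share, 2127 with DESeq2 and 1559 with the 6 libraries. They were 2781 without WT marrow replicate 1, and 868 without WT marrow replicate 2. The fit without the 2 high libraries, which also lowers the spread, is left out of these counts over all genes. The member count was 0 to 1 when 1 library was left out: 1 call arose without WT marrow replicate 1 (Tnfaip3), ETV6-RUNX1 fetal liver replicate 2 (Nfkbib) or ETV6-RUNX1 fetal liver replicate 3. In ETV6-RUNX1 cells the member count of 1 became 0 with median-of-ratios scaling, the replicate block, the Y-linked level, the pseudogene share, edgeR, DESeq2 and only the 6 libraries, 2 with quantile normalization and without the 2 high libraries, 3 with array weights, and 0 to 2 when 1 library was left out. Calls over all genes went from 4088 to 5192 with array weights and 3933 with quantile normalization. Median-of-ratios scaling gave 3521, the replicate block 3739, the Y-linked level 2464 and the pseudogene share 3188. With edgeR they were 3244, with DESeq2 3755 and with the 6 libraries 3647. Without ETV6-RUNX1 marrow replicate 1 they were 2949, beside no member, and without WT marrow replicate 1 they were 4611, beside 1 member. The cause of these shifts was not tested.

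No pairing of the samples by replicate number was seen. The deviations of same-numbered libraries correlated between -0.44 and 0.39 over 18 pairs, with 7 over 0.1. Those of libraries with other numbers correlated between -0.50 and 0.66 over 36 pairs, with 14 over 0.1. Deviations from means of 3 libraries are not independent of one another, so a pairing is not excluded. With the replicate block 7 members were called in fetal liver and 7 in marrow, 0 for the difference between the sources and 0 in either comparison of fetal liver with marrow. Of all 14271 genes that fit called 3376 higher in fetal liver and 1769 higher in marrow. It called 1033 for the difference between the sources, and 1425 (WT) and 3739 (ETV6-RUNX1) for fetal liver against marrow.

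Of 1185 planned recomputations for the members, 1070 were counted as the same, 58 lost and 22 gained a call, 35 moved, and no called change reversed. Same means that a called result kept its call and direction, or that an uncalled one stayed uncalled within its SE. Moved means that an uncalled result stayed uncalled but shifted by its SE or more. Among values of members and named pathway genes past the threshold in neither fit, the sign changed 69 times over 17 results. Some of these were counted as the same. With 3 libraries a group, differences of the size seen between the genotypes for Rela and Nfkb1 are within the spread.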
